A study of Mus musculus with 18 samples.

Results

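The genes described here are 37 collagens and other extracellular matrix genes, chosen by symbol from a fixed list. All 37 were found among the 23453 gene symbols of the count table. They were divided by role into 6 fibrillar collagen genes, 7 basement membrane genes, 4 genes of collagens VI and XII, 6 adhesive and matricellular genes, 6 elastic fibre genes, 3 cross-linking enzymes, 3 small leucine-rich proteoglycans, and a chaperone and a protease inhibitor. Messenger RNA was measured in B16F10, a melanoma line from C57BL/6J mice, grown either in dishes or as tumours. The cells had received a lentiviral pLKO.1 vector with a puromycin marker that carried a short hairpin RNA against Hgs (shHrs) or a scrambled hairpin (shCTL), and infected cells had been selected and expanded with no clone named. Hgs encodes HRS, an endosomal sorting protein, and was knocked down and not deleted. Cultures came in 2 batches, each with 2 shCTL and 2 shHrs libraries. Tumours came from wild-type female C57BL/6 mice of 6 to 8 weeks with an intact immune system, 5 with shCTL cells and 5 with shHrs cells, and each tumour library holds RNA of the melanoma cells and of the host cells around them.

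The extracellular matrix is the protein and sugar scaffold outside cells. Fibrillar collagens form the tensile fibres of connective tissue, basement membranes are thin sheets of type IV collagen, laminins and nidogens under epithelia and around vessels, and elastic fibres are cores of elastin on a fibrillin scaffold. In tumours much of this scaffold is laid down by fibroblasts and vessel-associated cells, while the tumour cells make a part of it themselves.

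The libraries held between 17612820 and 27705076 counts each. Levels are given as CPM, a gene's counts relative to its library's total after TMM scaling over all 18 libraries. The targeted gene, Hgs, was at 94.99 and 113 CPM in the batch 1 shCTL cultures against 35.2 and 30.4 in shHrs, and at 97.8 and 107 against 44.5 and 41.25 in batch 2. In tumours Hgs lay between 95.8 and 112 CPM with shCTL and between 16.1 and 29.1 with shHrs, so the groups did not overlap and the labels held in every library. The labels name separate biological repeats, but the 2 libraries of a culture group may differ only technically, and p-values for cultures then measure only that spread. Several libraries stood apart. The second shCTL culture of batch 1 had far more RNA of several matrix genes than the first, with Fn1 at 996.5 against 136 CPM and Col1a1 at 45.2 against 3.22. Among the tumours, shCTL 2, shCTL 5 and shHrs 4 held the most matrix RNA.

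Most of the 37 genes were higher in tumours than in dishes of the same line. With shCTL, 28 of 37 genes were higher in the 5 tumours than in the 4 cultures and 1, the laminin gene Lamc1, was lower (edgeR's quasi-likelihood test, adjusted p under 0.05), beside 28.3% higher and 22.6% lower among all 14458 genes tested. With shHrs, in other libraries, 29 were higher and 1, Efemp2, was lower, beside 29.8% and 24.4% of all genes. The median log2 difference of the 37 genes was 3.70 with shCTL and 4.41 with shHrs, against 0.05 for all genes in either. Only 25 of the 37 genes, and 12897 genes in all, passed the low-count filter in the cultures alone. The other matrix genes entered this fit through the tumours, where they are high, so the filter fixed their direction. They are Col5a2, Nid2, Col6a2, Tnc, Thbs2, Fbn1, Fbln2, Efemp1, Lox, Bgn, Dcn and Lum. All of them are among the genes called higher with either hairpin, and they raise both medians. By role, the genes that rose with shCTL were 4 of 6 fibrillar collagen, 5 of 7 basement membrane, 4 of 4 collagen VI and XII, 4 of 6 adhesive, 4 of 6 elastic fibre, 3 of 3 cross-linking and 3 of 3 proteoglycan genes, and Timp1 but not Serpinh1. With shHrs these counts were 4, 6, 4, 3, 5, 3 and 3, again with Timp1. Without the 2 shCTL tumours richest in matrix RNA, 28 of the 37 genes were called in either direction, beside 42.4% of all genes. Set against the cultures of batch 1 alone or batch 2 alone, 25 and 26 of the 37 were called with shCTL, beside 38.1% and 43.4% of all genes. The labels do not say that tumours and cultures were sequenced together, and the kind of sample and the run cannot be told apart. In tumours, a lower or higher number of cells of a type and less or more RNA per cell cannot be told apart either.

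The genes fell into classes by their level in the dish, which the heat map of levels by library shows. There were 19 genes with at least 1 CPM in all 8 cultures, 11 under 1 CPM in all 8, and 7 in between. The melanoma line by itself carried RNA for laminins, type IV collagen, fibronectin, Sparc and the collagen chaperone Serpinh1. The 11 genes under 1 CPM in every culture were Col5a2, Nid2, Col6a2, Tnc, Thbs2, Fbn1, Efemp1, Lox, Bgn, Dcn and Lum.

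**Figure D1:**
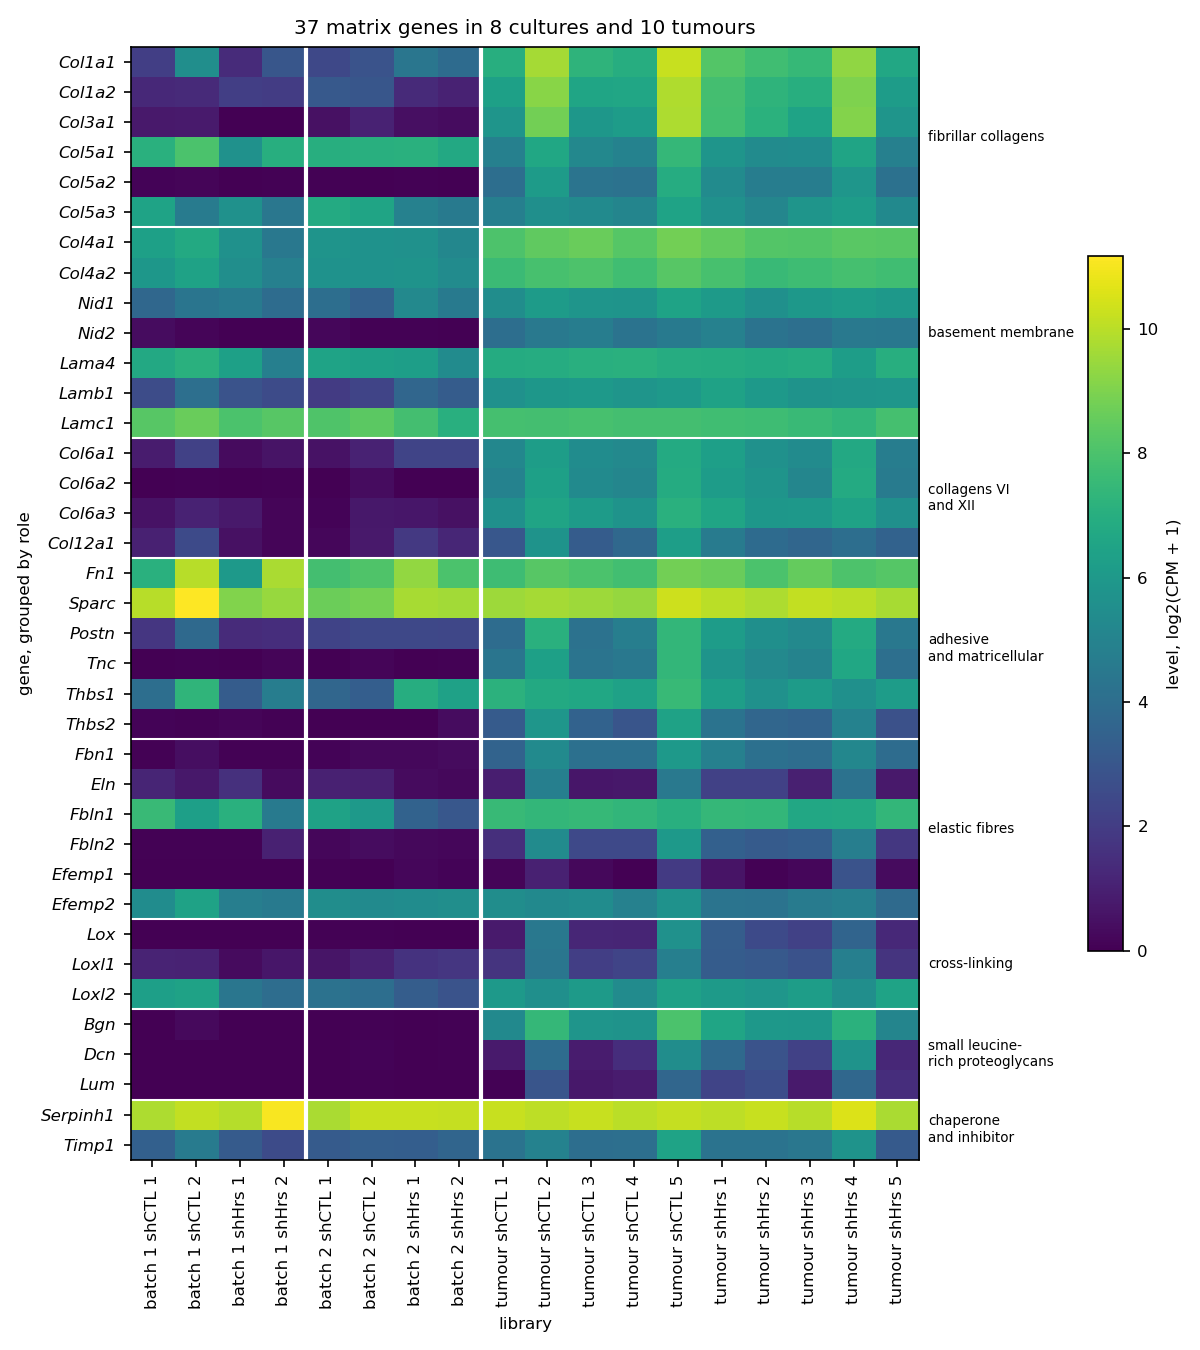
Level of the 37 matrix genes (vertical axis, grouped by role) in each of the 18 libraries (horizontal axis), coloured as log2(CPM + 1). The 11 genes under 1 CPM in all 8 cultures form dark bands on the left, and shCTL tumours 2 and 5 and shHrs tumour 4 are brighter than the other tumours for most fibrillar collagens and proteoglycans.

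Fibrillar collagens were split between genes that were near silent in the dish and genes that the line expressed. Col3a1, the chain of type III collagen, which forms fine reticular fibres beside type I, was at 0.71 and 0.77 CPM in the batch 1 shCTL cultures, at 0.41 and 1.08 in batch 2, and at 0.38 or less in the 4 shHrs cultures. In the shCTL tumours it was at 55.9, 450, 59.7, 72.3 and 888 CPM and in the shHrs tumours at 218, 140, 89.6, 549 and 55.1. Every tumour was thus far above every culture, and the log2 difference was 8.66 with shCTL (SE 1.22, adjusted p = 4.19e-05). Col5a1, a chain of type V collagen, which sets the width of type I fibres, ran the other way in its levels. It was at 137, 257, 128.5 and 131.5 CPM in the shCTL cultures and at 49.7, 129, 137 and 107 in shHrs, and at 28.01, 101, 36.7, 29.6 and 171 CPM in the shCTL tumours. With shCTL only tumour 5 reached the range of the cultures, and the difference did not pass (log2 -1.13, SE 0.50, adjusted p = 0.0685). Its partner Col5a2, the other chain of the common type V trimer, was at 0.11 CPM or less in all 8 cultures and between 15.2 and 121 CPM in the tumours. Col5a2 entered the test through the tumours, which fixed its direction, so only its levels are given.

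Among the fibrillar collagens with a promoter window, Col3a1 had the lowest and Col5a1 the highest median in the dish. Col1a2 was low and the one of the 37 genes called in a comparison of knockdown cultures. The 250 bases before the start site of these 3 genes are therefore shown. They are RefSeq windows on GRCm38.p6, the plus strand of each, read 5′ to 3′, at chr1:45311288-45311537 for Col3a1, chr2:27886175-27886424 for Col5a1 and chr6:4505368-4505617 for Col1a2. Capitals mark TATAAA in Col3a1, each CG in Col5a1 and CCAAT in Col1a2.
Col3a1: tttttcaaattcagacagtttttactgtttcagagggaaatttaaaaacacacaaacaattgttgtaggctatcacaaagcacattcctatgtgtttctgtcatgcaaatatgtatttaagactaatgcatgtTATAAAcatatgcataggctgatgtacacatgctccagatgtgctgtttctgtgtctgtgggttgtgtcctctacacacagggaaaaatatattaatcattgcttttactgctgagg
Col5a1: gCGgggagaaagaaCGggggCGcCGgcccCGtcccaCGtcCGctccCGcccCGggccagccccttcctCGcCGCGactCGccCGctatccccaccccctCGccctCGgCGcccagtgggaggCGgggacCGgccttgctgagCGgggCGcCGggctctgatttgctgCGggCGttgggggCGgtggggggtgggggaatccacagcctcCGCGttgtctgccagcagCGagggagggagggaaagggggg
Col1a2: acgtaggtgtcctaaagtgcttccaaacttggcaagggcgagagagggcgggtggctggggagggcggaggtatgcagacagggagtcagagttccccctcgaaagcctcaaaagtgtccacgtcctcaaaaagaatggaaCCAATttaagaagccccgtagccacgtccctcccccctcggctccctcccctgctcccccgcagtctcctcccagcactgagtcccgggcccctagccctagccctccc
The Col3a1 window held 1 TATAAA, 117 bases before the start, and 0 CG, and the Col5a1 window held 28 CG and no TATAAA on either strand. None of these letter strings lies inside another. Of all 32851 RefSeq windows of this length, 12.4% held TATAAA on either strand, 33.8% held CCAAT on either strand, 7.9% held no CG, and 7.6% held at least as many CG as Col5a1. A window was found for 23 of the 37 genes. The median number of CG was 14 for the 13 of them with at least 1 CPM in all cultures, 7.5 for the 6 under 1 CPM in all cultures, 3 for the 4 in between, and 6 for all windows. The ranges overlapped, at 4 to 31, 3 to 13 and 0 to 8 CG in the order of these classes. Sparc and Postn, both in the first class, had 4 each, and Postn also held TATAAA. These counts describe the letters in the windows and no factor's binding was measured.

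Type I collagen, the main fibre of skin and tendon, is built from Col1a1 and Col1a2. Col1a1 was between 1.615 and 45.2 CPM over the 8 cultures. In the shCTL tumours it was at 126.5, 816.5, 152.9, 123.5 and 1220 CPM, and in the shHrs tumours at 288.8, 214.9, 175.7, 638.8 and 104.3. No culture reached the lowest tumour, and the log2 difference was 5.43 with shCTL (SE 0.98, adjusted p = 0.000268). Col1a2 was between 1.09 and 7.70 CPM in cultures and between 72.3 and 910.5 CPM in tumours (log2 6.76, SE 0.92, adjusted p = 2.37e-05 with shCTL). Col5a3, a less common chain of type V collagen, was expressed at 20.9 to 112 CPM in dishes and 27.1 to 87.3 CPM in tumours, and its difference passed in neither comparison.

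Basement membrane genes varied little over tumours: their coefficients of variation lay between 11 and 21.1%, against 38.8 to 109.6% for the fibrillar collagens. Col4a1 and Col4a2, the chains of the ubiquitous type IV collagen network, are divergent neighbours on chromosome 8 whose annotated exons share 22 bases. Col4a1 was between 21.4 and 109 CPM in cultures, between 266.5 and 447 CPM in shCTL tumours and between 280.5 and 361 CPM in shHrs tumours. It rose by 2.31 on the log2 scale with shCTL (SE 0.22, adjusted p = 6.93e-07) and by 3.02 with shHrs. Col4a2 rose by 1.99 and 2.38. The nidogens, which bridge laminin to type IV collagen, differed in the dish: Nid1 had a median of 17.3 CPM over the 8 cultures and Nid2 of 0.0448. In tumours their medians were 60.9 and 21.6 CPM. Nid1 rose with either hairpin, and for Nid2 the low-count filter fixed the direction. Lamb1, a laminin beta chain, had medians of 5.71 CPM in cultures and 58.3 in tumours and rose by 3.29 (SE 0.28, adjusted p = 1.85e-07 with shCTL). Lamc1, the gamma chain shared by most laminins, was high everywhere, between 130 and 394 CPM in cultures and between 164 and 241 CPM in tumours. Its fall by 0.49 with shCTL (SE 0.15, adjusted p = 0.0109) was lost in 3 of 17 alternatives, 1 of them without the second shCTL culture of batch 1 (adjusted p = 0.056). Lama4, the laminin alpha chain of vessel walls, rose with shHrs (log2 0.95, SE 0.25, adjusted p = 0.00455) and its difference with shCTL was 0.30 (adjusted p = 0.33).

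Collagen VI forms beaded filaments around cells, and collagen XII sits on the surface of type I fibres. All 4 of their genes rose in tumours with either hairpin, though for Col6a2 the low-count filter fixed the direction. Col6a3 was between 0.0912 and 1.10 CPM in cultures and between 47.2 and 136 CPM in tumours (log2 7.19 with shCTL, SE 0.51, adjusted p = 3.54e-08). Col6a1 was at most 3.94 CPM in any culture and between 25.7 and 112 CPM in tumours, and Col6a2 had 0 counts in 5 of 8 cultures and 24.2 to 118 CPM in tumours. Col12a1 had a median of 0.86 CPM in cultures and 13.4 CPM in tumours.

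Among the adhesive and matricellular genes, those expressed most by the line, Fn1 and Sparc, were called in neither comparison. Fn1 encodes fibronectin, which links cells to collagen through integrins. It ranged from 62.5 to 996.5 CPM over the cultures and from 210.1 to 443 CPM over the tumours, all within the culture range (log2 -0.38 with shCTL, adjusted p = 0.594). Sparc, a collagen-binding glycoprotein, had medians of 753 CPM in cultures and 862 CPM in tumours (log2 0.00 with shCTL, SE 0.22, adjusted p = 0.995). Against batch 1 cultures alone Sparc was lower in shCTL tumours, by 0.96 on the log2 scale (adjusted p = 0.00936), and against batch 2 alone it was higher by 0.96 (adjusted p = 0.0136). Per kilobase of exon, Serpinh1 and Sparc ranked first and second of the 37 genes in shCTL cultures, shHrs cultures, shCTL tumours and shHrs tumours alike.

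Periostin, tenascin C and thrombospondin 2, which are typical of wounds and stroma, were higher in tumours. Postn was between 1.56 and 13.1 CPM in cultures, and at 14.25, 134, 17.8, 26.2 and 169 CPM in the shCTL tumours (log2 3.70, SE 0.79, adjusted p = 0.00109). Tnc did not exceed 0.125 CPM in any culture and lay between 15.7 and 168 CPM in tumours. For Tnc and Thbs2 the low-count filter fixed the direction, so levels or counts are given in place of a test. Thbs2 had 3 counts over the 4 shCTL cultures against 3190 over the 5 shCTL tumours, a ratio of 1019 per unit of library size with a 95% counting interval from 348 to 4942. Thbs1, which the line expressed unevenly (8.50 to 158 CPM), rose by 2.04 with shCTL (SE 0.48, adjusted p = 0.00234) and by 0.57 with shHrs, which did not pass (adjusted p = 0.307). The difference between these effects did not pass either (log2 -1.47, adjusted p = 0.203), and with shCTL the rise was not called against batch 1 cultures alone (log2 0.53, adjusted p = 0.496).

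Of the elastic fibre genes, Fbn1, which encodes the fibrillin scaffold, had a median of 0.13 CPM in cultures and 16.4 CPM in tumours. About 20.1% of its exon bases are shared with Gm9913 on the opposite strand, which the table does not list. Fbln2, with a median of 0.14 CPM in cultures, was higher in tumours too (log2 7.74 with shCTL). Fbn1 and Fbln2 entered the test through the tumours, which fixed their direction, so no p-value is given. Eln, elastin itself, was uneven. It was between 0.19 and 1.88 CPM in cultures, at 0.92, 27.6, 0.59, 0.63 and 21.6 CPM in the shCTL tumours and at 3.49, 3.54, 0.95, 17.4 and 0.69 CPM in the shHrs tumours. Elastin RNA was thus at dish level in shCTL tumours 1, 3 and 4, and its rise with shCTL (log2 3.37, adjusted p = 0.0325) turned to -0.45 (adjusted p = 0.733) without shCTL tumours 2 and 5. The call was lost in 11 of 17 alternatives, among them without tumour 2 alone (adjusted p = 0.0913), without tumour 5 alone (adjusted p = 0.0691) and without any 1 of the 4 shCTL cultures. With shHrs the call of Eln was lost in 8 of 16 alternatives, and without shHrs tumour 4 its log2 difference was 2.16 (adjusted p = 0.146). Efemp1, which also entered the test through the tumours, stayed below 1 CPM in 7 of the 10 tumours. Its call with shCTL was lost in 10 of 17 alternatives, among them without shCTL tumour 5 (log2 4.73, adjusted p = 0.0903). Its call with shHrs was lost in 9 of 16, among them without shHrs tumour 4 (log2 3.28, adjusted p = 0.136), and with either hairpin leaving out any 1 of the 4 cultures ended it. Fbln1 and Efemp2, fibulins that the line expressed, had culture medians of 70.5 and 42.1 CPM and tumour medians of 165.5 and 27.9 CPM. With shHrs, Fbln1 rose (log2 2.44, SE 0.39, adjusted p = 9.76e-05) and Efemp2 fell (log2 -0.70, SE 0.22, adjusted p = 0.0131), and both calls were lost against batch 1 cultures alone (adjusted p = 0.148 and 0.414).

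The lysyl oxidases cross-link collagen and elastin. Lox had 2 counts over the shCTL cultures and 0 over the shHrs cultures, against 1388 and 664 counts over the tumours of each hairpin, so that it was at least 171-fold higher in shHrs tumours when 3 counts stand for 0. Loxl1 rose in tumours with either hairpin (log2 3.58 and 3.40), with shHrs not against batch 2 cultures alone (adjusted p = 0.083). Loxl2 was the only one of the 3 that the line expressed at more than a few CPM. It was at 78.2 and 84.7 CPM in the batch 1 shCTL cultures, at 17.69 and 15.3 in batch 2, and between 40.85 and 88.4 CPM in the 10 tumours. The shCTL tumours thus lay above the batch 2 cultures and across or below those of batch 1, and the log2 difference was 0.72 (SE 0.21, adjusted p = 0.0105) against both batches and -0.44 (adjusted p = 0.188) against batch 1, and the call was lost without the second shCTL culture of batch 2 (adjusted p = 0.0526). With shHrs it rose by 2.52 (SE 0.23, adjusted p = 4.70e-07).

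The small leucine-rich proteoglycans biglycan, decorin and lumican, which coat collagen fibres, were almost absent in the dish. Bgn had no more than 0.22 CPM in any culture and was at 38.0, 170.5, 55.75, 53.0 and 257 CPM in the shCTL tumours and at 94.6, 61.2, 58.5, 139 and 33.0 in shHrs. Dcn had 2 counts over the shCTL cultures against 1126 over the shCTL tumours (ratio 539, 95% counting interval 149 to 4459). Lum had 1 against 378 (ratio 362, interval 64.6 to 14340). Serpinh1, the endoplasmic reticulum chaperone of procollagen, was between 871 and 2171 CPM in cultures and between 875 and 1516 CPM in tumours, and its level passed in neither comparison. Timp1, an inhibitor of matrix metalloproteinases, had medians of 9.24 and 18.1 CPM, and its rise with shCTL (log2 1.44, adjusted p = 0.0411) was lost in 10 of 17 alternatives, among them without shCTL tumour 2 (adjusted p = 0.0543) and without shCTL tumour 5 (log2 0.69, adjusted p = 0.216). With shHrs it rose by 1.51 (adjusted p = 0.0339), which was lost in 8 of 16 alternatives, among them without shHrs tumour 4 (log2 0.96, adjusted p = 0.13). With either hairpin the call also ended without any of 3 of the 4 cultures.

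**Figure D2:**
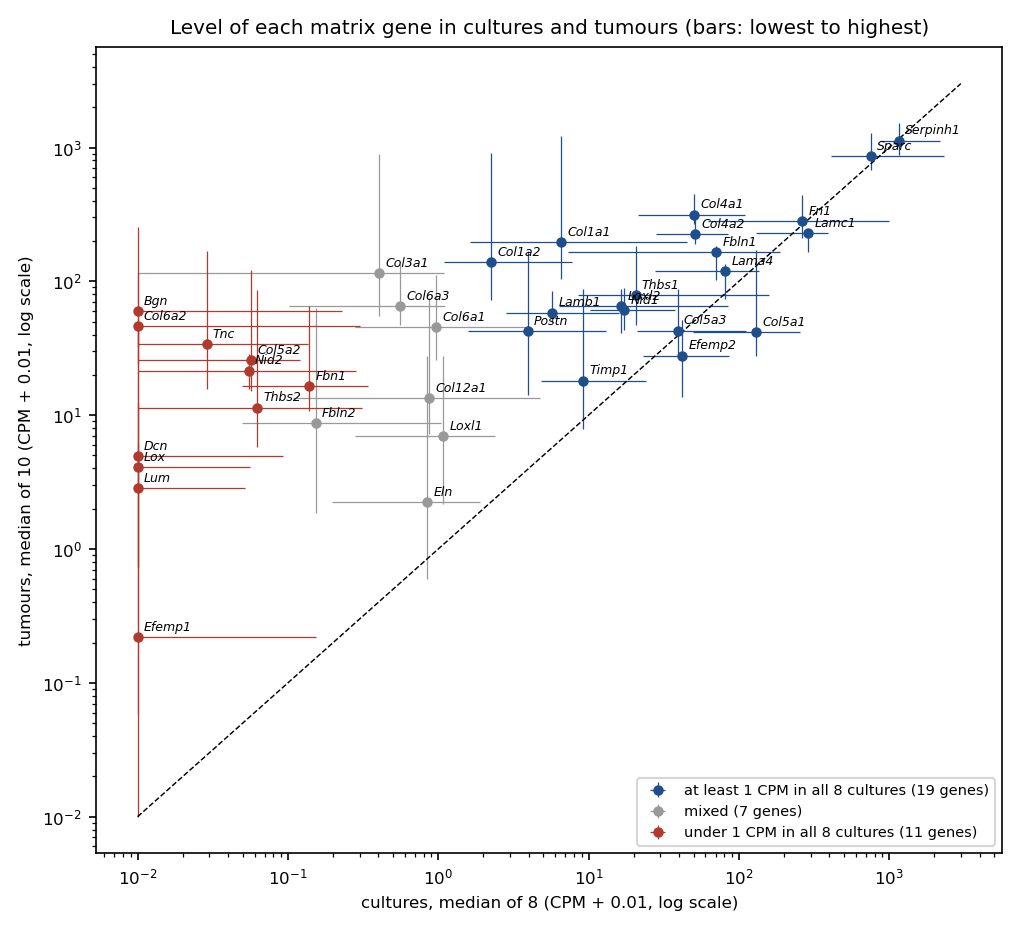
Median level of each matrix gene over the 8 cultures (horizontal axis) and the 10 tumours (vertical axis), both as CPM + 0.01 on log scales, with bars from the lowest to the highest library and colours for the class of level in culture. The 11 genes under 1 CPM in all 8 cultures lie far above the dashed line of equal levels, while Serpinh1, Sparc, Fn1 and Lamc1 lie near it.

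Tumours differed from each other most in the genes that were low in the dish. The tumours shCTL 2, shCTL 5 and shHrs 4 held the 3 highest values for 20 of the 37 genes, among them 10 of the 11 genes under 1 CPM in all cultures and 6 of the 19 expressed in all cultures. The median coefficient of variation over the 10 tumours was 90.0% for the 11 genes, 97.0% for the 7 in between and 25.1% for the 19. In shCTL tumour 5 the 11 genes stood at a median of 4.70 times their own tumour median, with 2.72 in shCTL tumour 2 and 2.66 in shHrs tumour 4, against 0.55 to 1.61 in the other 7 tumours. For the 19 line-expressed genes the same ratio lay between 0.85 and 1.5 in all 10 tumours. Nid2, a vessel basement membrane gene, was the exception among the 11 genes and varied by 19.9%.

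Fibroblast and macrophage markers were highest in the same tumours. The summed level of 8 fibroblast markers was 82.2 CPM in shCTL tumour 2, 158 in shCTL tumour 5 and 189 in shHrs tumour 4, against 28.2 to 72.3 CPM in the other 7. Dpt, which marks connective tissue fibroblasts, was at 7.17, 16.8 and 23.3 CPM there and at 0.0586 to 2.60 CPM elsewhere, and it had 0 counts in every culture. Of the fibroblast list, Pdgfrb was expressed by the line itself (15.2 to 55.0 CPM in cultures), whereas Dpt and Mfap5 had 0 counts in all 8 cultures and Thy1 in 7. Pdgfra was between 0.94 and 8.07 CPM over the tumours. The 8 macrophage markers summed to 252, 336 and 577 CPM in the same tumours and to 23.1 to 199.9 CPM in the other 7. Skeletal muscle markers followed another order: the 6 summed to 742, 308 and 255 CPM in shHrs tumours 4, 2 and 1, to 173 and 21.2 CPM in shCTL tumours 5 and 2, and to 4.98 to 75.6 CPM in the others. Pericyte and smooth muscle markers ranged only from 101 to 217 CPM and endothelial markers from 151 to 269 CPM over all 10 tumours. Rgs5, a pericyte gene, lay between 10.4 and 22.1 CPM, Acta2 of smooth muscle between 36.4 and 88.0, Pecam1 of endothelium between 25.7 and 46.5, Adgre1 of macrophages between 0.53 and 18.4 and Acta1 of muscle between 0.63 and 259. Mlana of the melanoma line was between 773 and 1662 CPM in tumours. Keratinocyte markers summed to at most 2.03 CPM and adipocyte markers to at most 10.1 CPM in any tumour. The part of these cells in the matrix levels was not tested.

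**Figure D3:**
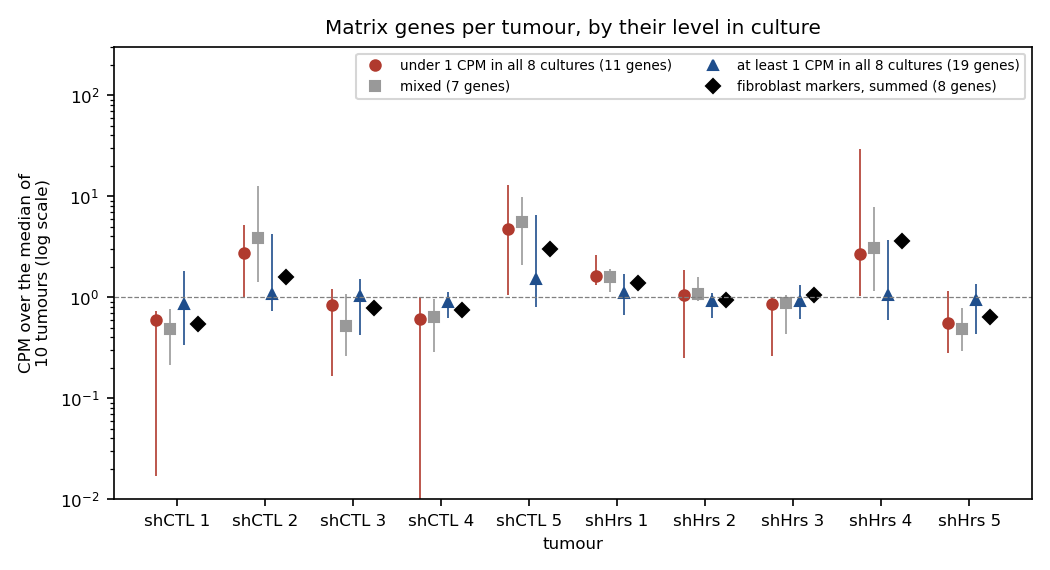
Level of the matrix genes in each of the 10 tumours (horizontal axis) divided by the gene's median over the 10 tumours (vertical axis, log scale), as the median (symbol) and range (line) of each class of level in culture, with the summed fibroblast markers as diamonds. The 11 genes silent in culture peak in shCTL tumours 2 and 5 and shHrs tumour 4 at 2.72, 4.70 and 2.66, and the lower end of a line at 0 is not drawn.

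Genes for chains of the same collagen kept a narrow range of ratios in tumours. The ratio of Col1a1 to Col1a2 CPM lay between 1.25 and 1.63 in all 10 tumours, although the highest tumour held 11.7 times the Col1a1 and 12.6 times the Col1a2 of the lowest. In cultures it ran from 0.50 to 30.4, the latter in the second shCTL library of batch 1. It was 0.57 and 0.89 in the batch 2 shCTL cultures and 13.5 and 12.8 in the batch 2 shHrs cultures, where Col1a1 was higher and Col1a2 lower. The ratio of Col4a1 to Col4a2 lay between 1.35 and 1.53 in tumours and between 0.765 and 1.36 in cultures, and that of Col6a1 to Col6a2 between 0.91 and 1.21 in tumours. Ratios of CPM are not ratios of molecules, because the transcripts differ in length, and they carry counting error where the genes are low.

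**Figure D4:**
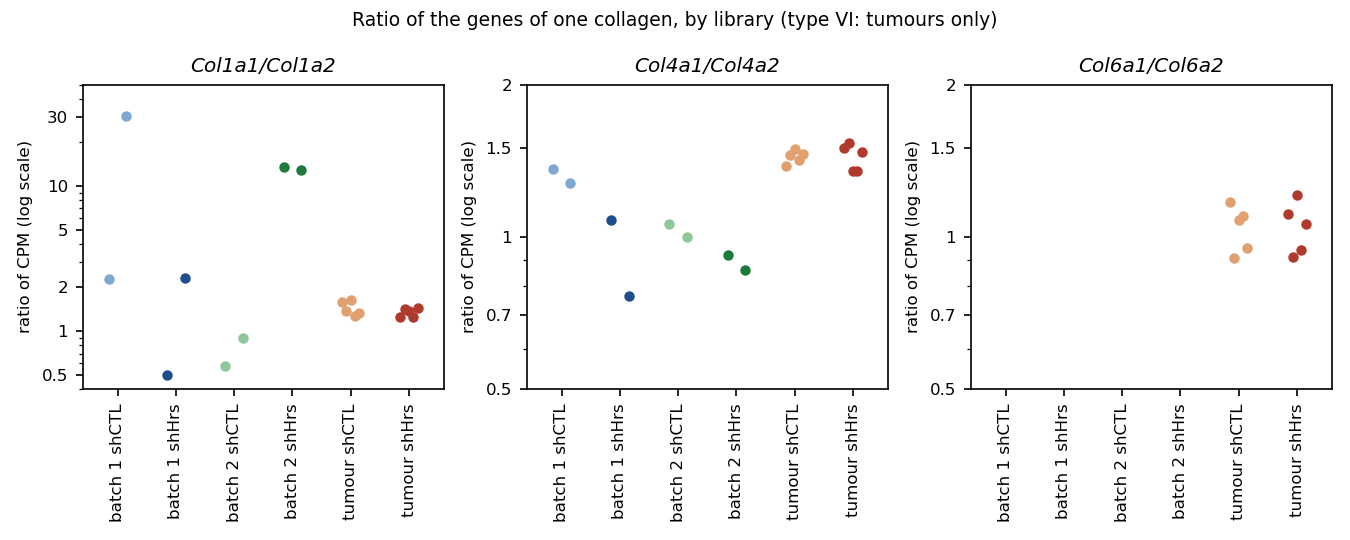
Ratio of CPM between the 2 genes of type I, type IV and type VI collagen (vertical axes, log scale) in each library by group (horizontal axes), with 1 point per library and type VI shown for tumours only. Tumour ratios sit close together in all panels, and the Col1a1 to Col1a2 ratio spreads from 0.50 to 30.4 in cultures.

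Knockdown of Hgs was compared in tumours over 36 of the 37 genes, since Efemp1 was too low to test. 1 of the 36 was called, beside 0.545% of all 13215 genes tested. Efemp2, also named fibulin 4, is a secreted glycoprotein needed for elastic fibre assembly and the action of lysyl oxidase. It lies on chromosome 19 at chr19:5473954-5482517 (GRCm38, plus strand). It was at 43.85, 38.3, 42.5, 28.7 and 51.6 CPM in the shCTL tumours and at 18.5, 18.2, 23.8, 27.1 and 13.6 CPM in the shHrs tumours. All 5 shHrs tumours were below all 5 shCTL tumours, by 1.02 on the log2 scale (SE 0.20, adjusted p = 0.0469). The call held without the 3 tumours richest in matrix RNA (log2 -1.06, adjusted p = 0.0496) and was lost when any of 8 of the 10 tumours was left out alone, with adjusted p from 0.0628 to 0.148. Of the 10 tumours left out alone, it was kept without shCTL tumour 4 and without shHrs tumour 4, and the difference itself stayed between -1.16 and -0.91. In a fit of all 18 libraries the adjusted p was 0.0645. Mus81 shares 4.6% of the Efemp2 exon bases on the opposite strand, and its own difference was 0.12 (adjusted p = 0.739).

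Efemp2 and Thbs1 were the only genes of the 36 whose tumour groups did not overlap, a share near the 4.27% of all genes tested. Thrombospondin 1 is a matricellular protein that restrains vessel growth and activates latent TGF-beta. It was at 144, 110, 101, 83.0 and 185 CPM with shCTL and at 74.8, 48.7, 69.8, 47.2 and 70.6 CPM with shHrs. The difference of -1.01 (SE 0.21) missed the threshold with edgeR (adjusted p = 0.0662). It passed with DESeq2 (adjusted p = 0.000328), which called 549 of all 13215 genes against 72 with edgeR. With edgeR it also passed without shCTL tumour 4 (adjusted p = 0.0476). It missed without the 3 tumours richest in matrix RNA (log2 -0.74, adjusted p = 0.086). It missed again with a replicate block and in a fit of all 18 libraries.

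For the other matrix genes the 2 groups of tumours overlapped. Of the 36 differences 27 were negative and 9 positive, with a median of -0.20, beside 0.01 for all genes. This balance turned with the tumours included. Without shCTL tumour 5 there were 15 negative and 21 positive differences, and without the 3 matrix-rich tumours 9 negative and 27 positive, with medians of 0.08 and 0.40. Without shHrs tumour 4 there were 31 negative and 5 positive differences, with a median of -0.70. Without shCTL tumour 1, 3 or 4 the medians were -0.35, -0.30 and -0.32. Col1a2 moved from -0.70 to 0.68 with those 3 tumours left out (adjusted p = 0.739 and 0.242). Between the same groups 6 of 7 tested fibroblast markers, 8 of 8 macrophage markers and 6 of 6 skeletal muscle markers had positive differences, with medians of 0.20, 0.46 and 2.32, and none of them was called. Other host cell lists did not lean that way. Pericyte and smooth muscle markers had 2 positive and 5 negative differences, endothelial markers 4 and 4, and adipocyte markers 0 and 3. The part of any of these cell types in the matrix values was not tested. Of the matrix genes, those of the basement membrane had small errors: Col4a1, Col4a2 and Lamc1 differed by -0.17, -0.17 and -0.20 with SE of 0.14, 0.13 and 0.09. Lox differed by -1.33 with an SE of 1.04.

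**Figure D5:**
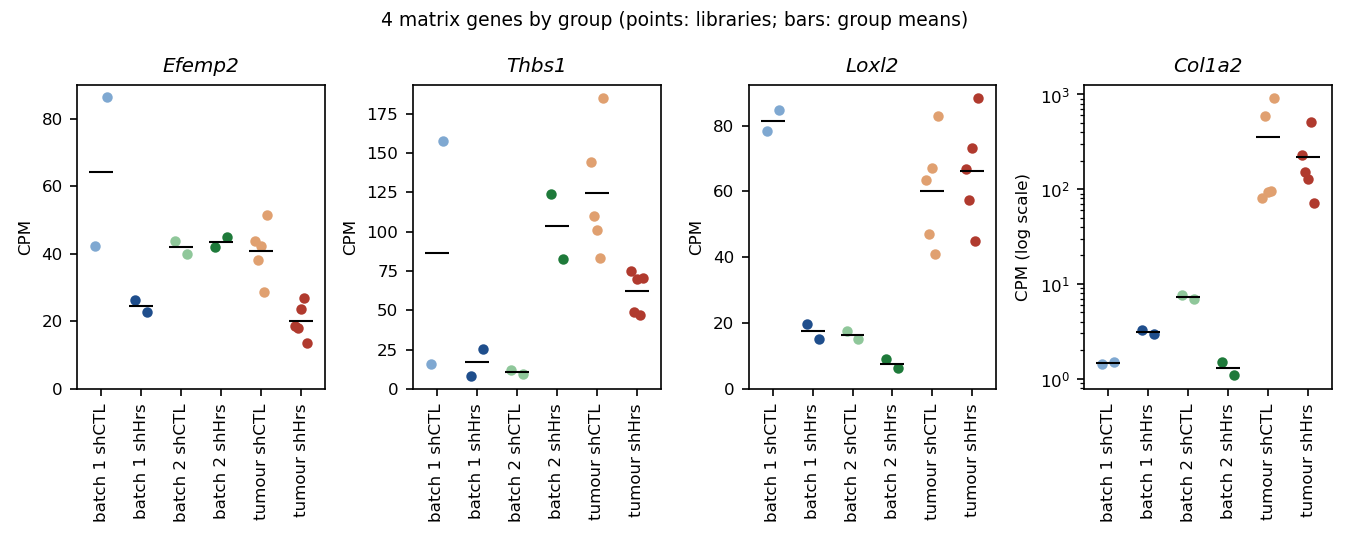
CPM (vertical axes, log scale for Col1a2) of Efemp2, Thbs1, Loxl2 and Col1a2 in each library by group (horizontal axes), with points for libraries and bars for group means. Efemp2 and Thbs1 are lower in all shHrs tumours than in any shCTL tumour, Loxl2 is lower with shHrs in both culture batches and not in tumours, and Col1a2 is lower with shHrs in batch 2 cultures.

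In the cultures of batch 1, 0 of 25 tested matrix genes were called, beside 0% of all 12897 genes (0 genes by edgeR), and 16 of the 25 had an unadjusted p under 0.05, as had 1210 of all genes. Hgs itself was not called there with edgeR (log2 -1.67, SE 0.22, adjusted p = 0.103). A lack of calls in batch 1 thus does not show a lack of effect. DESeq2 called 5 of the 25, beside 1.71% of all genes, and limma voom 0 of either. The differences were mostly negative, 21 of 25, with a median of -1.17 beside 0.01 for all genes. The second shCTL library was high for many of them. Thbs1 was at 15.6 and 158 CPM with shCTL and at 8.50 and 25.5 with shHrs, and Postn at 2.43 and 13.1 against 1.56 and 1.76. Without that library 18 of 25 differences were negative and the median was -0.63, and without the first shHrs library the median was -1.82 and 9 matrix genes were called, beside 11.3% of all genes. Loxl2 had close replicates, 78.2 and 84.7 CPM with shCTL against 19.9 and 15.1 with shHrs, a log2 difference of -2.22 (SE 0.28, adjusted p = 0.103). Col3a1 had 32 counts with shCTL and 0 with shHrs, which makes it at least 9.54-fold lower when 3 counts stand for 0. The 12 genes too low to test had at most 9 counts in either group of batch 1, apart from Fbln2 with 22 counts in shHrs against 2 in shCTL.

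In the cultures of batch 2, 1 of 25 genes was called, a share near the 4.03% of all genes. Col1a2 fell from 7.70 and 6.92 CPM with shCTL to 1.48 and 1.09 with shHrs, by 2.55 on the log2 scale (SE 0.40, adjusted p = 0.0242). The call was lost without any 1 of the 4 batch 2 libraries (adjusted p from 0.117 to 0.300). With shHrs, Col1a1 was instead higher, at 20.05 and 13.9 CPM against 4.42 and 6.17 (log2 1.63, SE 1.03, adjusted p = 0.329). Other genes had close replicates and wide group gaps that missed the threshold. Thbs1 was at 12.0 and 9.175 CPM with shCTL and at 124 and 82.5 with shHrs (log2 3.24, SE 0.96, adjusted p = 0.0813). Fbln1 was at 86.4 and 62.2 against 10.5 and 7.24 (log2 -3.11, SE 0.78, adjusted p = 0.0613), and Loxl2 at 17.69 and 15.3 against 8.95 and 6.34 (log2 -1.16, SE 0.28, adjusted p = 0.056). The count of genes called depended on the fit: DESeq2 called 8 of the 25, beside 15.4% of all genes, and edgeR on the 4 batch 2 libraries alone called 14 of 24, beside 34.1%.

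The difference between the batches was itself tested, and 0 of the 25 genes passed with edgeR, beside 0.155% of all genes. Of the 25, 14 had an unadjusted p under 0.05 with edgeR, as had 2618 of all 12897 genes. DESeq2 called 6 of the 25, beside 7.6% of all genes. Col1a2 had 1.41 and 1.49 CPM with shCTL against 3.23 and 2.99 with shHrs in batch 1, opposite to batch 2 (difference of log2 effects -3.64, SE 0.56, adjusted p = 0.0598). Thbs1 differed by 5.62 (SE 1.33, adjusted p = 0.0958). Efemp2 was lower with shHrs in batch 1 (42.2 and 86.6 CPM against 26.4 and 22.9) and similar in batch 2 (43.95 and 39.95 against 42.05 and 45.15), with a difference of 1.40 (SE 0.47, adjusted p = 0.16).

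Between tumours and cultures the effect of the knockdown differed for 2 of 37 genes, beside 3.61% of all 14458 genes. For Hgs itself the log2 effect was -2.28 in tumours, against -1.67 and -1.30 in culture batches 1 and 2. Its difference of effects passed too (-0.82, SE 0.21, adjusted p = 0.0407 with edgeR), so the depth of the knockdown was not equal. Loxl2 was at lower levels with shHrs in both culture batches. In tumours the difference was 0.13 (SE 0.21), with 63.4, 47.0, 67.1, 40.85 and 82.8 CPM with shCTL and 66.7, 57.5, 73.3, 45.0 and 88.4 with shHrs. Its log2 effect was 1.80 higher in tumours (SE 0.30, adjusted p = 0.00615) and was called under all 23 alternatives. It shares 5.6% of its exon bases with Gm27177 on the opposite strand. Nid2 was called as well (adjusted p = 0.0463), but the call rests on cultures with 9 and 4 counts in the shCTL groups against 0 and 1 with shHrs, and it was lost in 18 of 23 alternatives. About 8.4% of its exon bases are shared with Rtraf on the opposite strand. In tumours Nid2 was between 15.6 and 28.7 CPM, and the hairpins differed by 0.03 on the log2 scale (SE 0.18).

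Other genes of matrix biology, 161 in 5 lists, showed what surrounded the 37. In tumours against cultures with shCTL, 27 of 44 tested glycoprotein and proteoglycan genes rose and 8 fell, as did 9 and 4 of 22 other collagens, 15 and 4 of 29 collagen-processing enzymes, 12 and 7 of 25 proteases and inhibitors, and 6 and 9 of 24 TGF-beta signalling genes, beside 28.3% higher and 22.6% lower among all genes. Their median log2 differences were 3.10, 0.42, 0.34, 0.53 and -0.05. With shHrs the counts were 24 and 9, 9 and 4, 16 and 2, 11 and 4, and 6 and 12, in the same order, beside 29.8% and 24.4% of all genes. With either hairpin the share that rose was above that of all genes in 4 of the 5 lists and below it for the TGF-beta genes. Of the 161 genes, 144 were tested here and 109 passed the low-count filter in the cultures alone. The rest entered through the tumours, which fixed their direction. Several of these genes were almost without counts in the dish and are given as levels. Adamts2, which trims procollagen, was at 0.0392 CPM or less in cultures and 6.23 to 17.4 CPM in tumours. Hapln1, which links hyaluronan to proteoglycans, was at 0.335 CPM or less and 17.2 to 62.1 CPM, and the macrophage elastase Mmp12 had 0 counts in all 8 cultures and 3.22 to 16.4 CPM in tumours. Ctsk, a collagen-cutting protease, rose by 7.46 with shCTL (SE 0.61, adjusted p = 1.38e-07), and Pmepa1, a target of TGF-beta signalling, by 3.47 (SE 0.56, adjusted p = 0.000104).

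With the knockdown, few of these genes passed. In tumours 1 of 133 did, beside 0.545% of all genes, a share near that of the list. Fkbp10, a collagen chaperone of the endoplasmic reticulum, fell from 72.15, 70.1, 77.4, 57.2 and 82.8 CPM with shCTL to 45.4, 41.8, 50.9, 51.9 and 33.9 with shHrs (log2 -0.69, SE 0.13, adjusted p = 0.0479). In batch 1 cultures 0 of 109 passed with edgeR, as did 0 of all genes. In batch 2 cultures 5 of 109 rose and 2 fell, beside 4.03% of all genes in either direction, and without any 1 of the 4 batch 2 libraries 0 of all genes, these included, were called. Ccn2, a matricellular gene induced by TGF-beta and YAP, rose from 2.96 and 4.00 to 64.8 and 68.3 CPM (log2 4.21, SE 0.78, adjusted p = 0.0325). Pmepa1 and Smad6, feedback inhibitors of TGF-beta family signalling, rose by 3.91 and 2.85, and the cartilage collagen gene Col2a1 by 2.07. Lamb2, a laminin beta chain, and Reck, an inhibitor of metalloproteinases at the cell surface, fell by 1.36 and 1.68. Between tumours and cultures the effect differed for 3 genes in one direction and 6 in the other, of 144, beside 3.61% of all genes. It was lower in tumours for Ccn2 (difference -2.25, SE 0.53, adjusted p = 0.0311), Fkbp10 (-1.49) and Tgfb2 (-0.98), and higher for Lamb2 (1.24, SE 0.17, adjusted p = 0.00207), Reck, Matn2, Prelp, Col4a5 and Adamts9.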

How the data were processed

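Raw counts per gene symbol were used as deposited, in a single table of 18 libraries from 8 cultures and 10 tumours, and no library was pooled. The submitters' processing notes name STAR 2.4.0h2, DESeq and the mm10 build. Neither the counter nor its annotation or use of strand is named there, and opposite-strand genes that overlap cannot be told apart. The kit was NEBNext Ultra, per the labels' protocols.

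All genes passing edgeR's filterByExpr (minimum count 10, minimum total 15) were fitted with edgeR 4.0.16 (R 4.3.3) by the quasi-likelihood F test, two-sided, after TMM scaling. P-values were adjusted by Benjamini-Hochberg over all genes tested, with a threshold of 0.05. Tumours were fitted alone for the knockdown, the 8 cultures together with a mean per batch and hairpin, and all 18 libraries for tumours against cultures and for the difference of effects. Standard errors were the log2 difference divided by the root of F. Where a group had 3 counts or fewer, an exact ratio with a 95% interval is given, or a bound with 3 counts in place of 0, covering counting error only. Exon lengths and overlaps came from GENCODE models on GRCm38, and promoter windows from RefSeq on GRCm38.p6. Alternatives were DESeq2 1.42.0, limma voom 3.58.1, RLE scaling, no filter, a replicate block, single batches, other sets of libraries and leaving out each library. Without the low-count filter every gene with any count in the fitted libraries enters the fit.

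The 37 genes and all lists (161 matrix pathway genes in 5 lists, 53 cell type markers in 8) were chosen with earlier results of these data known. All 37 genes were to be named, and of other lists at most 4 genes with the largest difference past the threshold in a comparison, with a few markers as levels. Of the listed genes, 251 were in the table, 12 through an older symbol. Libraries of a group differed beyond sampling noise (chi-square per degree of freedom 13.76 to 208.96), so each counted as 1 replicate. On simulated counts over the 13215 genes of the tumour comparison, 100 genes drawn at random were changed by each fold. Of 2-fold changes 82.7% were recovered, with 14 false calls. The rate is for genes drawn at random and does not carry over to matrix genes that vary more. The SE in tumours was 0.71 for Col1a1 and 1.04 for Lox, against 0.13 for Col4a2. Over the 12897 genes of batch 2 cultures, 3% of 2-fold and 61.2% of 4-fold changes were recovered, with 6 false calls. Of the 161 pathway genes, 1 is counted in its list and not otherwise reported here.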

Additional observations from a re-analysis of the deposited data

Results flagged for a closer look

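Dixon's test was run for each of the 37 genes in each group of 5 tumours, 74 sets of values in all. In 8 of them 1 tumour stood apart from the other 4. For a single set chance does this in about 1 of 20. The sets come from the same tumours and are not independent, so their number cannot be weighed against that rate. With shHrs, tumour 4 stood high for elastin (Eln, 17.39 CPM, next 3.54), the fibulin Efemp1 (6.15, next 0.498), the cross-linking enzyme Loxl1 (27.63, next 8.54), decorin (Dcn, 51.93, next 12.9) and Timp1 (52.03, next 20.4). With shCTL, tumour 5 stood high for Sparc (1293 CPM, next 802) and Timp1 (87.18, next 30.3), and tumour 3 for Lamc1 (240.7, next 231).

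The effect of the knockdown differed between tumours and cultures for Loxl2 (log2 difference of effects 1.801) and Nid2 (3.501), by the test of that difference with edgeR. For Nid2 it rests on cultures with 9 counts or fewer per group.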

How the results depend on the processing

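Of the values of single genes under the alternatives, 3073 kept their sign and their side of the threshold. With the same sign, 118 passed and 97 no longer passed the threshold. The sign changed in 215 values that passed in neither fit and in 3 that passed in at least 1 of them: Sparc (-0.96) and Loxl2 (-0.44) against batch 1 cultures alone, and Eln (-0.45) without shCTL tumours 2 and 5. Counts below are of the matrix genes and then of all genes. In tumours they were 1 and 72, 2 and 549 with DESeq2, and 0 and 29 in a fit of all 18 libraries. In batch 1 cultures they were 0 and 0, 5 and 220 with DESeq2, and 11 and 438 with no filter. In batch 2 they were 1 and 520, 8 and 1988 with DESeq2, 10 and 2224 with no filter, and 14 and 4303 from that batch alone. For the difference between batches they were 0 and 20, 6 and 980 with DESeq2, 10 and 1311 with no filter, and 0 and 13 with voom. With no filter, these culture fits tested 37 matrix genes and 17590 genes in all, against 25 and 12897 with it. For tumours against cultures in the knockdown effect they were 2 and 522, 3 and 1410 with DESeq2, 1 and 460 with voom, and 1 and 381 with no filter. The cause of these shifts was not tested.

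Same-numbered tumours correlated between -0.573 and 0.394, and their numbers did not pair them. In cultures, with 2 numbers a batch, both pairs share the same correlation, 0.142 in batch 1 and 0.016 in batch 2. That each library was closest to its own number follows from the positive sign alone. It is a weak hint from the data and not from the design. In batch 1 the second library had the higher sum of the 37 genes with both hairpins (6000 against 3179 CPM and 4390 against 2335 CPM). With the replicate block, tumours gave 0 matrix genes and 2 genes in all, batch 1 gave 0 and 1, and batch 2 gave 4 and 464.

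Leaving out each library in turn gave 0 to 2 matrix genes and 32 to 158 genes in tumours, 0 to 9 and 0 to 1496 in batch 1, 0 and 0 in every fit of batch 2, 0 to 9 and 0 to 1968 for the difference between batches, 25 to 29 and 6254 to 7039 for shCTL tumours against cultures, 27 to 32 and 6999 to 8592 for shHrs, and 1 to 6 and 125 to 2194 for the difference of effects. A lone library left in a culture group was assumed to vary like the others. The sets without 3 matrix-rich tumours, or without shCTL tumours 2 and 5, were chosen after seeing the data. With 2 libraries a culture group, 2-fold changes were mostly below what the test could call.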

Other observations

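The 37 genes together took up between 2335 and 6000 CPM of the cultures and between 3925 and 9533 CPM of the tumours, so the summed ranges overlapped although single genes differed widely. In the second shCTL culture of batch 1 the sum was 6000 CPM, above 7 tumours, and most of it came from Sparc (2312 CPM), Serpinh1 (1145 CPM) and Fn1 (996.5 CPM). Among the endothelial markers, Vwf was higher in shHrs tumours (62.3 to 86.5 CPM) than in shCTL tumours (29.0 to 45.9 CPM), with a log2 difference of 1.01 (SE 0.13, adjusted p = 0.00739 with edgeR), while the other 7 markers of the list were not called.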
